A study of Mus musculus with 12 samples.

Results

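The 160 genes described here are the mouse zinc finger genes of chromosomes 7, 13 and 17. They are the protein-coding genes of the GENCODE M21 annotation on those chromosomes whose symbol is Zfp followed only by a number, with Zfp36, which encodes a protein of another zinc finger class, left out. They made up 160 of 21938 protein-coding genes on chromosomes 1 to 19, X and Y, with 88 on chromosome 7, 31 on chromosome 13 and 41 on chromosome 17. Another 204 numbered Zfp genes lie on the other chromosomes. The study precipitated MOF, the histone H4 lysine acetyltransferase encoded by Kat8, from visceral white adipose tissue of C57BL/6 mice (backcrossed to C57BL/6J, per the methods) at 8 weeks of age on standard diet. Mof+/+ mice carried both functional alleles and Mof+/- mice were heterozygous for a loss of Mof in all tissues. For both genotypes, libraries were made of DNA precipitated with MOF, of DNA precipitated with histone H3 and of input, 12 in all in 6 groups of 2. The series' design text counts 3 Mof+/- animals, whereas the labels give 2 libraries of each kind. The values used here come from 2 peak lists, 1 for each genotype, with 19773 peaks for Mof+/+ and 731 for Mof+/-. Signal tracks were not analysed here. No peak had a value per library, so differences between genotypes could not be set against the spread between mice and none was tested. In whole tissue, fewer cells of a type and less MOF bound per cell cannot be told apart.

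Most C2H2 zinc finger proteins bind DNA through a tandem array of short fingers, each a fold held by a zinc ion and usually encoded together with its neighbours in a single long last exon. A large class also carries a KRAB box, a repressor domain that recruits TRIM28 (KAP1) and with it SETDB1, HP1 proteins and DNA methylation to transposable elements and imprinted loci. KRAB zinc finger genes arose by repeated tandem duplication, so many stand in clusters of near relatives, and some clusters are known to lie in heterochromatin that covers the finger exons. MOF works in the MSL and NSL complexes, of which NSL is known for binding the CpG-rich promoters of broadly expressed genes. The data address where MOF was found at these genes: at their start sites or over the exon that encodes the fingers.

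The label was checked against the annotation. At least 1 C2H2 finger was found in the protein of 159 of the 160 genes, the exception being Zfp935, and the median was 11.5 fingers with a range of 0 to 33. A stretch scoring as a KRAB A box was found in 113 genes and not in 47. In the tissue, 5 of 10 adipocyte marker genes had a Mof+/+ promoter peak, near the 41.0% of all coding genes, namely Adipoq (fold enrichment 2.59), Plin1, Lipe, Pnpla2 and Lpl, whereas none was listed at Fabp4, Lep, Cidec, Cd36 or Retn. B cell genes had such a peak in 8 of 10 cases, with fold enrichments of 2.67 to 7.30, and Pax5 also had a Mof+/- peak, which 1.32% of all coding genes had. The part of B cells in the peaks described below was not tested. The Mof+/- list was also shorter and stricter: its weakest peak had a −log10 p of 4.72 against 3.25 in Mof+/+. Kat8 itself lies on chromosome 7 (chr7:127912516-127925837) and had 3 Mof+/+ peaks, the one at its start with a fold enrichment of 4.20 (95% Poisson interval 2.58 to 6.51), and no Mof+/- peak.

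Sequences of 6 sites are given first, to show how CpG-rich, how similar and how repetitive these regions are. Each has 300 bases of GRCm38, 5′ to 3′ on the strand of the gene, with CpG sites in capitals. The first 5 run from 250 bases before to 50 bases after the start in RefSeq (GRCm38.p6), which held a promoter for 143 of the 160 genes. Zfp668 (chr7:127876787-127877086, minus strand, 19 CpG sites) lay under the promoter peak with the highest fold enrichment of any of these genes. Zfp346 (chr13:55105059-55105358, plus strand, 18 CpG sites) lay under the peak with the lowest fold among the highest promoter peak of each gene. Zfp53 (chr17:21488738-21489037, plus strand, 9 CpG sites) lay wholly under a peak, whereas Zfp54 (chr17:21422994-21423293, plus strand, 9 CpG sites), its neighbour but one in the same cluster, had none. Zfp458 (chr13:67268945-67269244, minus strand, 9 CpG sites) stands for a cluster without any promoter peak at its members. The last sequence is centred on the Mof+/- summit at Zfp710 (chr7:80026699-80026998, plus strand, 5 CpG sites), the only site of these genes in both lists.
Zfp668: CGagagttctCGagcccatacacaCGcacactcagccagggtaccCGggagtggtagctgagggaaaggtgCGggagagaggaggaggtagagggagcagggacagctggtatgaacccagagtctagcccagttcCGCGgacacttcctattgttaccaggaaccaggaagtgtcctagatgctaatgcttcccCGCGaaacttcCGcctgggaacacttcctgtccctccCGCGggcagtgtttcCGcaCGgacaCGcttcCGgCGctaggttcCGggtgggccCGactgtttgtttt
Zfp346: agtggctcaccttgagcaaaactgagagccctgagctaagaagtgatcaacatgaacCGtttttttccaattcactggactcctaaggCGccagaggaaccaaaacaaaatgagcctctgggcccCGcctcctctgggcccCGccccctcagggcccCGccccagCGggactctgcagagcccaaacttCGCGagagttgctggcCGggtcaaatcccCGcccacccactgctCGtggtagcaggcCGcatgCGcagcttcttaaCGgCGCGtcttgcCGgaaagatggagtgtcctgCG
Zfp53: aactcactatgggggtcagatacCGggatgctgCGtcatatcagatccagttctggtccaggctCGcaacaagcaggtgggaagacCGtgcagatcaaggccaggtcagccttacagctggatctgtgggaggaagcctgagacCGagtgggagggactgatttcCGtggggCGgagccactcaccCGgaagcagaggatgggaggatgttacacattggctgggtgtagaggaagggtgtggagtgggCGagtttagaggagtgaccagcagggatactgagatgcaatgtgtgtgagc
Zfp54: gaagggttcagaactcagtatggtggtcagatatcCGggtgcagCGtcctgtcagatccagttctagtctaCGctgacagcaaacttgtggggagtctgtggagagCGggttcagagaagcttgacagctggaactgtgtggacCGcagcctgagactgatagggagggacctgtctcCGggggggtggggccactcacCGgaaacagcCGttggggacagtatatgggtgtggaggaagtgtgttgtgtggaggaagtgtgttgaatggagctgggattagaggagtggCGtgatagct
Zfp458: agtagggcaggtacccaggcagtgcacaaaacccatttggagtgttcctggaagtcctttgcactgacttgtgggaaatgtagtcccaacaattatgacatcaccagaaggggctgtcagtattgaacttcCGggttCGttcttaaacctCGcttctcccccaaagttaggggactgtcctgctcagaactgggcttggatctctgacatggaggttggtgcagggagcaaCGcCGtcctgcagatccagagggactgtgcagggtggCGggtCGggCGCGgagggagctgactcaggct
Zfp710: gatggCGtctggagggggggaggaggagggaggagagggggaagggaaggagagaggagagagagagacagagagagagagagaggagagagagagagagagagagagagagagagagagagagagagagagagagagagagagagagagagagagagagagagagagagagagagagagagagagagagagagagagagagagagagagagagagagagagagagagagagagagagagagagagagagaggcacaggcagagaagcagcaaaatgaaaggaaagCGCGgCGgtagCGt

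The promoters of Zfp53 and Zfp54 had identical bases at 219 of 320 columns of a global alignment, or 68.4%. The Zfp710 site is dominated by a GA repeat, described with its values further on.

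A promoter peak was counted when it shared at least 1 bp with the 1000 bp on either side of any annotated start. In Mof+/+, 63 of the 160 genes had one (39.4%, 95% Wilson interval 32.1 to 47.1%), beside 41.0% of all protein-coding genes (9003 of 21938). The share was thus near the background. The numbered Zfp genes of other chromosomes had a promoter peak in 100 of 204 cases (49.0%, 42.2 to 55.8%). In Mof+/-, 1 of the 160 genes had a promoter peak (0.625%, 0.110 to 3.45%), beside 1.32% of all protein-coding genes (290 genes). Among genes with a Mof+/+ promoter peak, a Mof+/- promoter peak was listed for 1 of 63 zinc finger genes (1.59%, 0.281 to 8.46%) and for 283 of 9003 genes in all (3.14%, 2.80 to 3.52%). All these intervals cover the counting of genes only, and neighbours in a cluster are related copies rather than independent cases.

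The peaks at these genes were of modest height. Fold enrichment is the number of MOF ChIP fragments at the summit plus 1, divided by the local input background plus 1. It had a median of 3.54 over the 63 genes (quartiles 3.10 to 3.98, range 2.35 to 6.86), beside 3.98 over all 9003 genes with a promoter peak and 4.15 over the 100 Zfp genes of other chromosomes. Median width was 577 bp against 834 bp over all genes. A median of 16 fragments lay over the member summits (range 12.0 to 30.0), so a single fold value carries a wide counting interval. A value of 3.54, for instance, rested on 15 fragments over a background of 3.52, the lowest among the sampled peaks, and had an interval of 2.08 to 5.69, so most neighbours in the order of folds did not differ beyond their counting error. Summits lay close to the start: 55 of 63 were within 500 bp of the nearest start of the gene and the median absolute distance was 192 bp, beside 193 bp over all genes. They were downstream of the start at 36 genes and upstream at 27 (57.1% downstream, beside 60.4% over all genes).

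The highest peak spanned the paired genes Zfp668 and Zfp646 (chr7:127874749-127877335, 2587 bp), which are transcribed in opposite directions from 1 region. Its fold enrichment was 6.86 (95% Poisson interval 4.70 to 9.69, 30 fragments). Zfp668 is linked to DNA repair and to p53 stability. This was the only peak that served as the strongest of 2 of these genes, so the 63 genes rested on 62 peaks. Both genes stand beside Kat8, Zfp646 ending 26.5 kb and Zfp668 ending 35.7 kb before it. All 10 numbered Zfp genes within 1 Mb of Kat8 had a Mof+/+ promoter peak, as did 48 of the 69 other coding genes there besides Kat8 (69.6%). None of the 10 and none of the 69 had one in Mof+/-, beside 1.32% of all coding genes, so the absence in Mof+/- is near the background. The next folds on chromosome 7 were 6.43 at Zfp710, 4.87 at Zfp524 (chr7:5014066-5016226, interval 3.10 to 7.32), and 4.65 at both Zfp629 and Zfp526 (2.92 to 7.05). The peak at Zfp524 also lay within 1000 bp of starts of Fiz1 and Gm44973, and that at Zfp526 of a start of Dedd2. Of the 63 genes, 12 had a strongest peak that close to the start of another coding gene (against 25.8% of all genes with a promoter peak), and for these the peak cannot be assigned to 1 gene.

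Zfp710 was the only one of the 160 genes with a promoter peak in both genotypes. The Mof+/- call was lost under a q-value limit of 0.001 and when only the start of the longest coding transcript was used, which leaves 0 of 160. It is a single gene on chromosome 7 (ENSMUSG00000048897.15, chr7:80024814-80094173, plus strand) with 11 fingers and no KRAB-like box. Its main Mof+/+ peak (chr7:80024972-80027986) was 3015 bp wide, the widest among the 63 strongest peaks, with a fold enrichment of 6.43 (4.38 to 9.14, 29 fragments). From 1000 bp before the gene to its end 11 Mof+/+ peaks were listed, of which 3 counted as promoter peaks and 2 lay over the last exon. The Mof+/- peak (chr7:80026670-80027002, 333 bp) lay wholly inside the main Mof+/+ peak, in an intron of the transcripts that start before it, with its summit 461 bp downstream of the nearest start. Its fold enrichment was 3.99 (2.21 to 6.73) from 12 fragments over a background of 2.26, an interval that overlaps that of the Mof+/+ peak. The added 1 weighs more at this lower background. As plain ratios of fragments to background the values were 5.31 (2.74 to 9.27) in Mof+/- and 7.91 (5.30 to 11.4) in Mof+/+, and these intervals overlap too. The sequence printed above is of this peak. It holds an uninterrupted run of 166 bases of alternating G and A, the longest dinucleotide run within 150 bases of the summit of any of the 716 Mof+/- peaks on assembled chromosomes. Runs of at least 30 bases of any 2 bases were found at 22 of those peaks (3.07%, 2.04 to 4.61%) and at 455 of 19753 Mof+/+ peaks (2.30%, 2.10 to 2.52%), with overlapping intervals. Runs of G and A on either strand were at 12 Mof+/- peaks (1.68%, 0.961 to 2.91%) and 146 Mof+/+ peaks (0.739%, 0.629 to 0.869%), which do not overlap. At promoter peaks of coding genes they were at 5 of 330 (1.52%, 0.649 to 3.50%) and 41 of 10141 (0.404%, 0.298 to 0.548%), which do not overlap either. The Zfp710 peak is itself among the 12 and the 5, so neither gap is independent of the site described here, and no conclusion is drawn. No such run lay near the Mof+/+ summit of Zfp710, and of the 62 strongest member peaks only that of Zfp763, with 44 bases, had one. The part of the repeat in the Mof+/- peak was not tested.

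The 3 chromosomes differed in the share of genes with a Mof+/+ promoter peak, although the intervals overlapped. On chromosome 7 it was 40 of 88 (45.5%, 35.5 to 55.8%), beside 31.9% of the other coding genes of that chromosome (617 of 1935), with intervals that did not overlap. On chromosome 13 it was 7 of 31 (22.6%, 11.4 to 39.8%), beside 42.5% of the others (343 of 807). On chromosome 17 it was 16 of 41 (39.0%, 25.7 to 54.3%), beside 45.1% (458 of 1015). The chromosomes also differed in the makeup of their members. CpG sites were counted in the 1000 bp on either side of the main start. Their median was 64.5 on chromosome 7, 34.0 on chromosome 13 and 45.0 on chromosome 17, and KRAB-like genes made up 54 of 88, 23 of 31 and 36 of 41.

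The 7 genes with a peak on chromosome 13 can be given in full. Zfp367 (chr13:64152852-64153252) and Zfp131 (chr13:119790994-119791487), a gene with 5 fingers, both had a fold enrichment of 3.98 (2.41 to 6.24). Zfp369 (chr13:65278554-65279123) had 3.32 (1.91 to 5.42), Zfp65 (chr13:67723850-67724407) 3.05 (1.89 to 4.67) and Zfp169 (chr13:48512994-48513552) 2.90 (1.67 to 4.73). The lowest were Zfp273 with 2.57 (1.46 to 4.27) and Zfp346 (chr13:55104786-55105772) with 2.35 (1.50 to 3.54), the lowest of all 63. Every interval overlapped every other, so these 7 peaks have no order beyond counting error. At Zfp65 the peak lay at a group of annotated starts downstream of the RefSeq start. On chromosome 17 the highest folds were 4.42 (2.75 to 6.78) at Zfp53 (chr17:21488685-21489538) and Zfp472 (chr17:32965275-32966155), both clustered KRAB-like genes. Zfp598 (chr17:24669231-24670024) followed with 3.98 (2.41 to 6.24) and Zfp213 (chr17:23564034-23564321) with 3.76 (2.24 to 5.97). The range over the 16 genes there was 2.44 to 4.42.

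**Figure D1:**
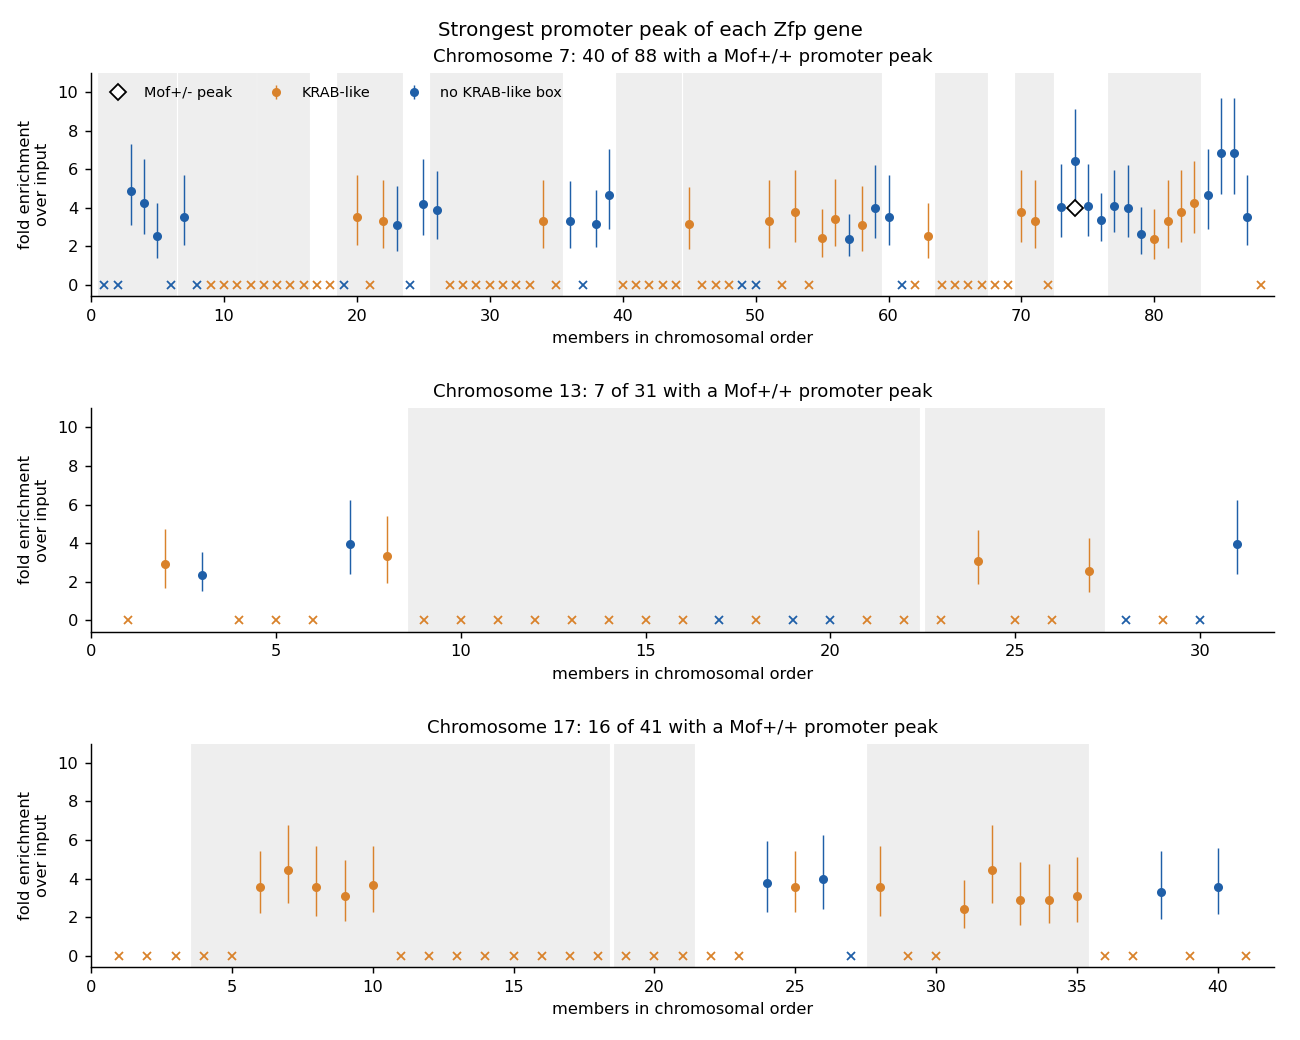
Fold enrichment over input of the strongest Mof+/+ promoter peak of each gene, in chromosomal order, with 95% Poisson intervals of the fragments as lines. Orange marks KRAB-like genes and blue the others, crosses at 0 mark genes with no promoter peak listed, grey bands mark clusters and the open diamond the Mof+/- peak of Zfp710. On chromosome 13 the 14 crosses of the larger cluster stand without a peak, on chromosome 17 5 adjacent genes of the first cluster have one, and on chromosome 7 all 7 genes of the last cluster do.

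Genes were chained while gene bodies of neighbours lay at most 100 kb apart. The 57 chains comprised 15 clusters of 3 or more genes (110 genes), 8 pairs (16 genes) and 34 single genes. Of the clustered genes 39 of 110 had a Mof+/+ promoter peak (35.5%, 27.1 to 44.7%) and of the paired and single genes 24 of 50 (48.0%, 34.8 to 61.5%). Pairs had 5 of 16 (31.2%) and single genes 19 of 34 (55.9%, 39.5 to 71.1%). The order was not the same on each chromosome. Clustered genes had the lower share on chromosome 7 (26 of 65 against 14 of 23, 60.9%) and on chromosome 13 (2 of 19, 10.5%, against 5 of 12, 41.7%), but the higher on chromosome 17 (11 of 26, 42.3%, against 5 of 15, 33.3%). All 3 pairs of intervals overlapped. Median fold enrichment was 3.32 in clusters and 3.67 outside them. Clustered genes had fewer CpG sites at the start (median 47.0 against 65.5) and more repeated sequence (median 96.5% of 50-base promoter windows unique in the genome, against 99.7%).

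**Figure D2:**
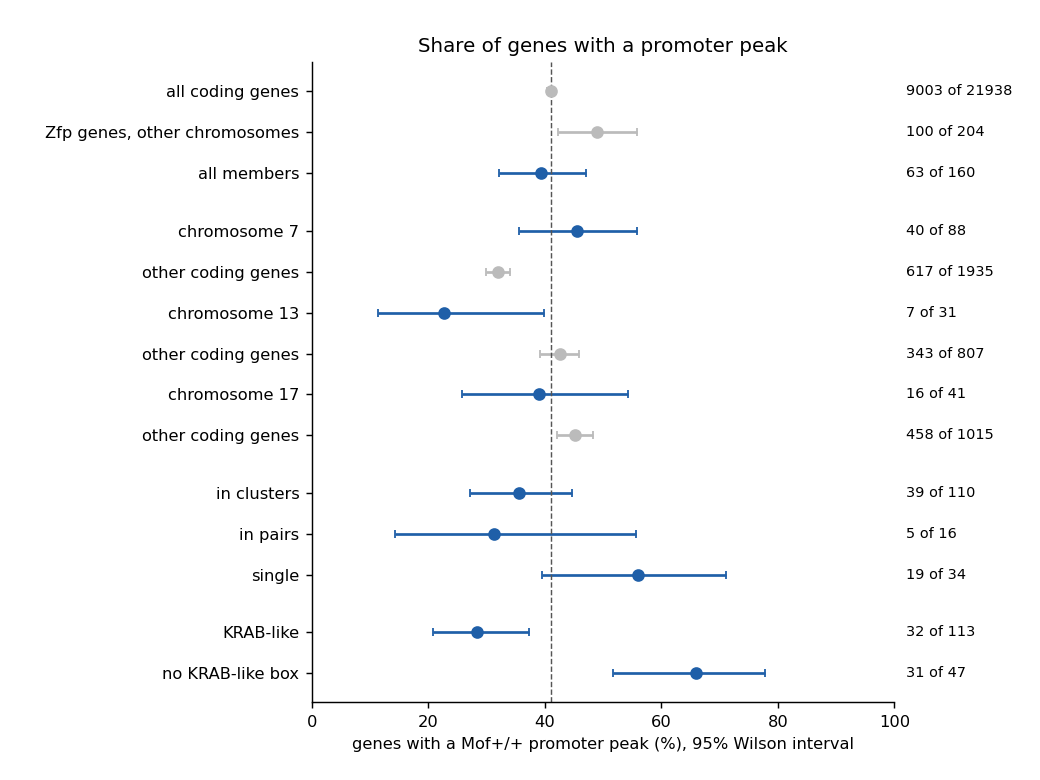
Share of genes with a Mof+/+ promoter peak, in percent, for the zinc finger genes of chromosomes 7, 13 and 17 (blue) and for comparison genes (grey), with 95% Wilson intervals and the counts at the right. The dashed line is the 41.0% of all coding genes, and the intervals of KRAB-like genes (20.8 to 37.2%) and of the others (51.7 to 77.8%) lie on either side of it.

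The clusters differed widely from each other. The 7 genes from Zfp553 to Zfp689 on chromosome 7 (chr7:127233061-127449158, 216 kb) all had a Mof+/+ promoter peak, with folds from 2.38 at Zfp747 to 4.25 at Zfp689. The span and its 1000 bp flanks held 16 Mof+/+ peaks, others of which lay at Sephs2 and at Itgal, a leukocyte integrin gene. A Mof+/- peak lay in the same cluster (chr7:127239715-127239971, fold enrichment 4.91, 2.88 to 7.89) but 4404 bp from the nearest start, that of Zfp771, and Mof+/+ had no peak at that place. At the other extreme stood the 14 genes from Zfp712 to Zfp748 on chromosome 13 (chr13:67038596-67553830, 515 kb), none of which had a promoter peak in either list. The single Mof+/+ peak in those 515 kb (fold enrichment 2.25, 1.41 to 3.41) was at Zfp874b, a gene of the same kind whose symbol ends in a letter. The 14 promoters had a median of 34.0 CpG sites. In all, 5 of the 15 clusters, with 30 genes, had no promoter peak at a member.

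The cluster from Zfp677 to Zfp994 on chromosome 17 (chr17:21383748-22225616, 842 kb) had 15 genes, all KRAB-like, and 5 of them had a promoter peak. These 5 were adjacent: Zfp51 (fold enrichment 3.55), Zfp53 (4.42), Zfp52 (3.54), Zfp948 (3.09) and Zfp983 (3.67). The 2 genes before them and the 8 after them had none. Of the 10 Mof+/+ peaks in this span, 4 were more than 1000 bp from any start of these genes. The peak 3011 bp from the start of Zfp52 had a fold enrichment of 4.65 (2.92 to 7.05), above each promoter peak of the cluster. Its interval overlapped that of Zfp53 (2.75 to 6.78), so the 2 did not differ beyond counting error. These 5 promoters were poor in CpG, with 25 to 49 sites each. The other large chromosome 17 cluster, from Zfp871 to Zfp563 (345 kb, 8 genes, all KRAB-like), had 6 genes with a peak. On chromosome 7 the 15 genes from Zfp84 to Zfp146 (401 kb) had 8 and the 10 genes from Zfp180 to Zfp94 (235 kb) had 2.

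The split by the KRAB-like box gave a wider gap in share than that by clustering. Of 113 KRAB-like genes 32 had a Mof+/+ promoter peak (28.3%, 20.8 to 37.2%), against 31 of the 47 genes without such a box (66.0%, 51.7 to 77.8%), and these intervals did not overlap. The order was the same on all 3 chromosomes, at 29.6% against 70.6% on chromosome 7, 17.4% against 37.5% on chromosome 13 and 33.3% against 4 of 5 genes on chromosome 17, with intervals that overlapped on chromosomes 13 and 17 but not on 7. The numbered Zfp genes of other chromosomes, which the rule did not take in, gave 33 of 101 (32.7%, 24.3 to 42.3%) and 67 of 103 (65.0%, 55.5 to 73.6%). Within KRAB-like genes the clustered ones had the larger share, 28 of 89 (31.5%, 22.8 to 41.7%) against 4 of 24 (16.7%, 6.68 to 35.9%), while within the others it was 11 of 21 (52.4%, 32.4 to 71.7%) against 20 of 26 (76.9%, 57.9 to 89.0%). Both pairs of intervals overlapped. Peaks at KRAB-like genes had a median fold of 3.32 and a median width of 552 bp, those at the others 3.98 and 686 bp.

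The 2 classes also differed in promoter sequence. The median number of CpG sites was 45.0 at KRAB-like genes and 81.0 at the others, and 63 genes with a peak had a median of 71.0 against 41.0 at the 97 without. The share with a peak went up with CpG content as it did in other coding genes. At 21 to 40 CpG sites it was 5 of 50 genes (10.0%, beside 17.9% of other coding genes), at 41 to 60 it was 19 of 43 (44.2%, beside 32.0%), at 61 to 80 it was 18 of 37 (48.6%, beside 55.5%), at 81 to 100 it was 8 of 11 (72.7%, beside 65.1%), and at 101 or more it was 13 of 16 (81.2%, beside 72.1%). In each of these 5 bands the rate of other coding genes lay inside the interval of the zinc finger genes, which ran from 4.35 to 21.4% in the lowest and from 57.0 to 93.4% in the highest. Within 41 to 80 CpG sites the KRAB-like genes had 24 of 61 (39.3%, 28.1 to 51.9%) and the others 13 of 19 (68.4%, 46.0 to 84.6%), with overlapping intervals. In its upper band, 61 to 80 sites, they had 8 of 25 (32.0%, 17.2 to 51.6%) and 10 of 12 (83.3%, 55.2 to 95.3%), which do not overlap, and the 55.5% of other coding genes lay above the KRAB-like interval. In its lower band they had 16 of 36 (44.4%) and 3 of 7 (42.9%). Outside this range the order was reversed. At 81 to 100 sites 3 of 3 KRAB-like genes and 5 of 8 of the others had a peak, and at 21 to 40 sites 5 of 46 and 0 of 4. Within 41 to 80 sites 45.0% of clustered genes and 10 of 20 of the rest had a peak. The shares there were 49.0% on chromosome 7, 37.5% on 13 and 43.5% on 17, closer together than over all CpG contents.

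**Figure D3:**
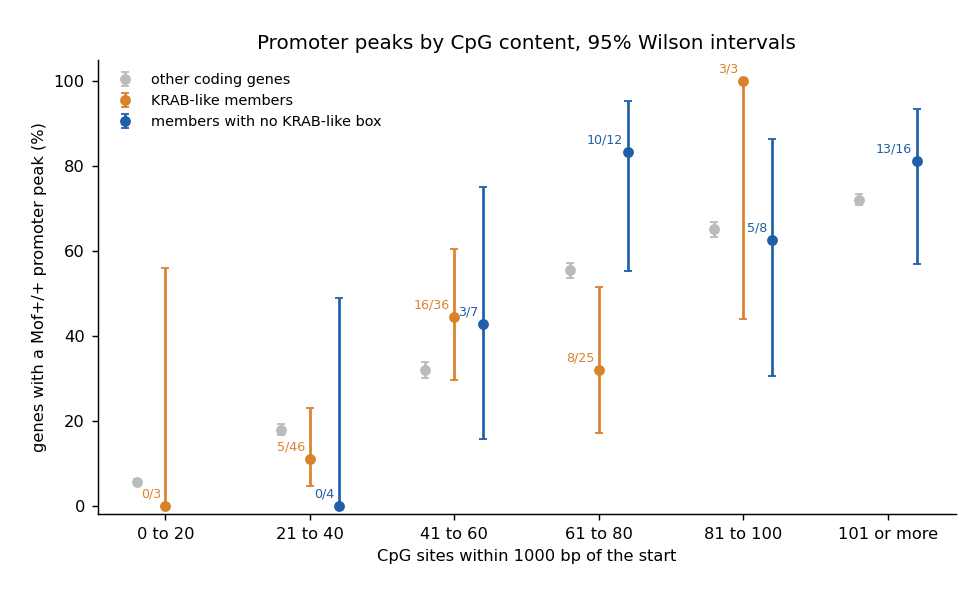
Share of genes with a Mof+/+ promoter peak, in percent with 95% Wilson intervals, by the number of CpG sites within 1000 bp of the start, for KRAB-like genes (orange), zinc finger genes with no KRAB-like box (blue) and other coding genes (grey). Figures beside the points are genes with a peak over genes in the band. At 61 to 80 CpG sites the share was 8 of 25 for KRAB-like genes and 10 of 12 for the others. The other bands that hold both classes showed no such gap. They had 5 of 46 and 0 of 4 at 21 to 40, 16 of 36 and 3 of 7 at 41 to 60, and 3 of 3 and 5 of 8 at 81 to 100.

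Reads from near-identical copies can be discarded or misplaced, so the promoters were also scored for sequence found at a single place in the genome. In 44 of the 160 genes, fewer than 90% of the 50-base windows within 1000 bp of any annotated start were unique, 20 of them on chromosome 7, 10 on chromosome 13 and 14 on chromosome 17. A Mof+/+ promoter peak was listed at 6 of these 44 (13.6%, 6.40 to 26.7%) and at 57 of the other 116 (49.1%, 40.2 to 58.1%). Over all coding genes the same split gave 12.4% and 45.6%. Of the 116 genes, 71 of the 113 KRAB-like and 45 of the 47 others made up the whole, so low uniqueness was mostly found at KRAB-like genes. Among these 116 a peak was listed at 27 of 71 KRAB-like genes (38.0%) and 30 of 45 others (66.7%). The lowest value was 1.38% at Zfp97 on chromosome 17, so nearly all of its windows recur elsewhere and a missing peak there says little. The 6 genes with a peak were Zfp787, Zfp747, Zfp764, Zfp369, Zfp983 and Zfp870. Of the 14 genes in the larger cluster of chromosome 13, the median fell above that limit. How reads that fit several places were treated is not given in the sources used here, and the part of repeated sequence in the missing peaks was not tested.

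**Figure D4:**
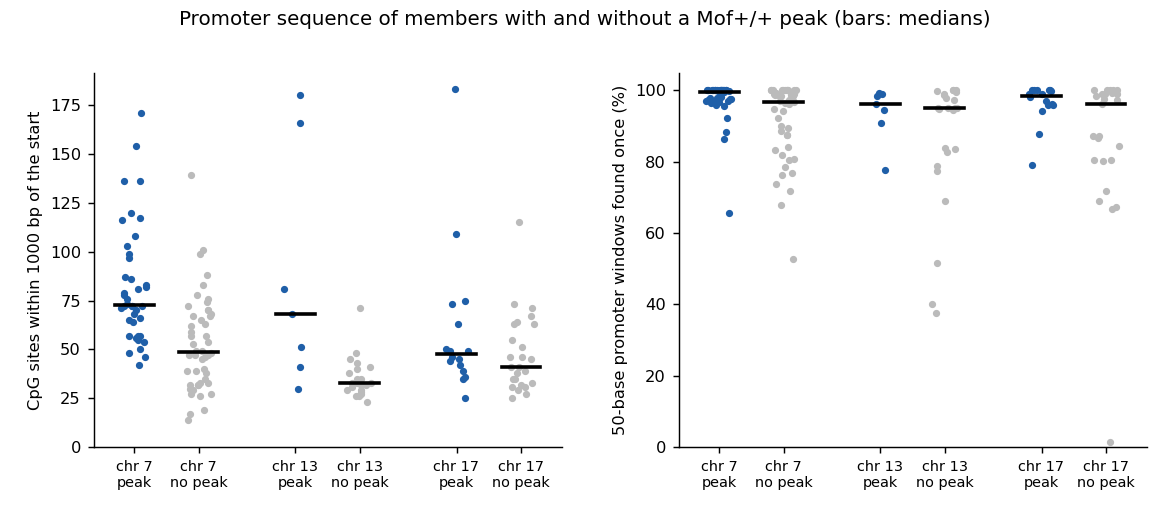
CpG sites within 1000 bp of the start (left) and the percentage of 50-base promoter windows unique in the genome (right) for each gene, by chromosome and by whether it had a Mof+/+ promoter peak (blue) or none (grey), with medians as bars. Genes with fewer than 90% unique windows are mostly grey, 38 of 44.

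Few of these genes had a peak over the exon that encodes the fingers. The last exon was taken from the transcript with the longest coding sequence. It held every finger in 140 of the 159 genes with fingers (88.1%) and 1748 of all 1883 fingers. In Mof+/+ a peak lay over the last exon of 4 of 160 genes (2.50%, 0.976 to 6.25%), beside 5.79% of all coding genes (1270 genes), a share inside that interval. The numbered Zfp genes of other chromosomes had 5 of 204 (2.45%, 1.05 to 5.61%). The last exons of the 160 genes were longer than those of all coding genes (median 2524 bp against 1118 bp). Per length, 5 peaks over 463 kb gave 1.08 peaks per 100 kb, beside 3.69 over all last exons. Among last exons of 1500 to 4000 bp it was 3 of 115 zinc finger genes and 459 of 6708 other genes (6.84%). In Mof+/- no last exon of the 160 genes held a peak (upper Wilson limit 2.34%), beside 0.365% of all coding genes (80 genes). The median last exon of these genes had 99.3% unique windows.

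The 4 genes were all on chromosome 7. At Zfp771, in the cluster where every gene had a promoter peak, a peak of fold enrichment 5.09 (3.27 to 7.59, chr7:127253875-127255429) covered much of the 999 bp last exon, which encodes all 8 fingers, and was higher than the promoter peak of the gene at 4.01 (2.46 to 6.21), with overlapping intervals. Zfp110 (also called NRIF), whose product binds the p75 neurotrophin receptor, had 3.98 (2.41 to 6.24, chr7:12849610-12850405) over the exon of its 5 fingers and 3.54 (2.08 to 5.69) at its start. The peak at Zfp628 (2.56, 1.47 to 4.17, chr7:4921562-4922118) reached within 1000 bp of a start of Nat14, so it cannot be assigned to the finger exon alone, and Zfp628 had no promoter peak. The higher of the 2 peaks at Zfp710 had 3.52 (2.10 to 5.59, chr7:80091158-80092816), in an exon that encodes none of its fingers. Peaks over an exon that encodes fingers were thus listed for 3 of the 143 genes that have them there.

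Genes without a promoter peak lay about as far from the nearest as other coding genes did. Of 97 such genes 2 lay within 3000 bp of a Mof+/+ peak (2.06%, beside 3.05% of all 12935 coding genes without a promoter peak), 91 over 10 kb from any (93.8%, beside 89.1%) and 46 over 100 kb (47.4%, beside 49.3%). The median distance was 88191 bp, beside 97143 bp. A single gene of the 97, Zfp628, had a peak in its body. Distances to the nearest Mof+/- peak had a median of 2106594 bp over all 160 genes.

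Genes of known role fell on both sides. Zfp143, which activates many promoters of housekeeping and small RNA genes, had a peak of fold enrichment 3.35 (2.27 to 4.79, 28 fragments, chr7:110060807-110062334) with its summit 1 bp from the start. Its close relative Zfp523 had none, though its promoter has 115 CpG sites, and the nearest peak was 2511 bp away. Zfp57, which maintains methylation at imprinted loci, had no peak within 42147 bp, whereas Zfp568, which represses a placental transcript of Igf2, had one of 3.76 (2.24 to 5.97). Zfp598, the ubiquitin ligase that marks collided ribosomes, had 3.98 and Zfp346, which binds double-stranded RNA, 2.35. Zfp318, known for splicing control of IgD in B cells, had 3.56 (2.16 to 5.58) with its summit 1112 bp inside the gene. Zfp592 had 4.08 (2.54 to 6.25) and Zfp507 3.54 (2.08 to 5.69). Zfp366, a dendritic cell gene with 28 CpG sites, and Zfp536, which limits neuronal differentiation, had no peak. The Zfp536 promoter was the most CpG-rich of all those without a peak, at 139 sites. Zfp184, next to histone genes on chromosome 13, had none either, and the nearest was 25882 bp away.

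Short motifs were looked for on both strands in the 250 bases before to 50 bases after the main start. GGGCGG, the core of Sp factor sites, was in 25 of 63 promoters with a peak (39.7%) and 27 of 97 without (27.8%), beside 45.3% of all coding genes. CCGGAA, the core of ETS sites, was in 31.7% and 39.2%, beside 18.1% of all, and so was found at these genes more often than at coding genes in general whether or not a peak was listed. AAGATGGC (YY1) was in 7.94% and 2.06%, beside 3.20%, GCATGCGC (NRF1) in 9.52% and 5.15%, beside 3.69%, and TGACGTCA (CREB) in 1.59% and 7.22%, beside 2.40%. The last 3 rest on at most 7 promoters a group. A match describes letters in the window and is not evidence of a bound factor.

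Partners through which KRAB zinc finger proteins act were looked at as a list of 14 cofactor genes, namely Trim28, Setdb1, Atf7ip, Cbx1, Cbx3, Cbx5, Chd3, Chd4, Dnmt1, Uhrf1, Smarcad1, Morc3, Atrx and Daxx. All 14 of this list had a Mof+/+ promoter peak, beside 41.0% of all coding genes, with a median fold of 4.54. None had one in Mof+/-, beside 1.32% of all coding genes, a rate at which so short a list would seldom hold one. Trim28, which binds the KRAB box and lies on chromosome 7, had a fold enrichment of 4.42 (2.75 to 6.78) and Setdb1, the H3K9 methyltransferase it recruits, 3.10 (1.75 to 5.14). The HP1 genes Cbx1, Cbx3 and Cbx5 had 3.98, 7.30 and 4.42, and Uhrf1, which guides maintenance methylation, had the lowest at 2.59 (1.55 to 4.11). These genes had 75 to 191 CpG sites at the start, more than most of the zinc finger genes.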

How the data were processed

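MOF binding was measured by ChIP-seq in visceral white adipose tissue of Mof+/+ and Mof+/- mice. The authors digested chromatin with CviKI-1, sonicated it, mapped paired reads to GRCm38 with snakePipes and called peaks with MACS2 (2.1.1.20160309.3, as named in the submitters' processing notes) against input at a q-value of 0.1. Whether the 2 libraries of a group were pooled is not given in the sources used here. The deposited lists hold, for each peak, its position, the fold enrichment at the summit (the ratio of ChIP fragments to input background, each with 1 added), −log10 p and the −log10 q-value. The deposited list with no genotype in its name was taken as Mof+/+ and the other names the heterozygote. Depth per library is not in these values. The MOF antibody named in the labels differs from those in the study's reporting summary.

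Gene models were GENCODE M21, read with Python 3.11.15. The fragments at a summit were recovered from fold and p (1000 of 1000 sampled Mof+/+ and 723 of 731 Mof+/- peaks, tolerance 0.002 in −log10 p) and gave exact 95% Poisson intervals, which cover counting error only, since PCR duplicates are not independent molecules. Shares carry 95% Wilson intervals. KRAB-like boxes were scored in every coding transcript with a matrix of 36 residues built from 74 boxes, with 40 as the threshold. All scores of members lay at or below 14.1 or at or above 49.7. Zfp213 (14.1), Zfp180 (11.2), Zfp446 (4.2) and Zfp473 (-14.2) scored highest among the genes below the threshold, and all had a Mof+/+ promoter peak. Fingers were counted with the PROSITE C2H2 pattern. The intervals and overlap code were tested on simulated data. No test was made, since each genotype had a single list. Members, gene lists and named genes were chosen with earlier results of these data known. The named genes were those with a Mof+/- peak, the 4 highest folds per chromosome, those with a last exon peak, the lowest fold and 16 genes of known role, and others stand as examples of a cluster or a class. The alternatives tried were other promoter windows, starts, q-value limits, cluster definitions and last exon rules.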

Additional observations from a re-analysis of the deposited data

How the results depend on the processing

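Of 89 values recomputed under the alternatives, 76 stayed within their interval (shares and folds) or within 1.5 times the main value (counts). The 13 that moved did so with a stricter cut on the peaks, with repeated promoters left out, or with fewer starts. Under a q-value limit of 0.001 the count of genes with a Mof+/+ promoter peak was 36 in place of 63, the shares were 27.3% (chromosome 7), 6.45% (13) and 24.4% (17), that in clusters was 16.4% against 18 of 50 single and paired genes, and those of KRAB-like and other genes were 10.6% and 51.1%. With 1 p cutoff for both lists, clustered genes had 24.5% against 42.0% of the others and KRAB-like genes 19.5%. The share of all coding genes under the 0.001 limit or this cutoff is not given here. These values therefore cannot be set against the 41.0%, which holds for the full list. Over genes with at least 90% unique windows, clustered genes had 45.3% against 56.1% and KRAB-like genes 38.0% against 66.7%. The alternatives for the KRAB-like split and the plain ratio at Zfp710 were added after seeing the data. The count of dinucleotide runs was likewise not planned beforehand. The Mof+/- promoter peak at Zfp710 was lost, leaving 0, under the 0.001 limit and when only the start of the longest coding transcript was used. With clusters of 5 or more genes, shares were 38.5% in clusters and 40.6% outside. No paired analysis was possible because the files used here hold 1 peak list for a genotype, without values by replicate, and no library could be left out for the same reason. Sampled summits rested on a median of 16 fragments in Mof+/+ and 14 in Mof+/-, and depth per library is unknown, so a missing peak is not evidence of missing MOF.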
